A study of Mus musculus with 8 samples.

Results

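Imprinted growth regulators are genes expressed mainly from the copy inherited from one parent, and 9 of them were examined here for acetylation of histone H3 at lysine 27 (H3K27ac), which decorates promoters and enhancers in use. The members were taken from a list by name and matched to the 55413 genes of the GENCODE M21 annotation of the mouse genome (mm10). They were the long noncoding RNAs H19 and Meg3, which are expressed from the maternal copy, and 7 protein-coding genes, of which Peg3, Mest, Plagl1, Dlk1 and Ndn are expressed from the paternal copy and Cdkn1c and Grb10 mainly from the maternal copy. All 9 were found.

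The data were lists of H3K27ac peaks, the stretches of chromatin enriched by immunoprecipitation and sequencing, from 4 breast tumors of Balb/c mice collected at terminal size. Both groups carried the polyoma middle T oncogene, driven in this model by the MMTV promoter, on a Rag1-deficient background without T and B cells of their own, and all mice received wild-type CD4+ T cells when 4 weeks old. The 2 control tumors came from PyMT;Rag1KO mice, and the 2 test tumors came from K14-TSLPtg;PyMT;Rag1KO mice, in which the keratin 14 promoter drives the cytokine TSLP in basal epithelial cells. In the sample titles, control is named tumor and test is named cyst, and 4 matched input samples have no lists used here.

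Imprinted genes sit in clusters in which a stretch of DNA methylated on one parental copy decides which copy is transcribed. Several of the paternally expressed members favor growth or mark embryonic progenitors, whereas maternally expressed Cdkn1c and Grb10 restrain proliferation and growth factor signaling. Many of these genes are expressed in the embryo and fall in level after birth. A peak list does not separate the parental copies, so a peak here can come from either one.

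For each gene the window was the gene body plus 50 kb either side, and its coverage was the percentage of bases that lay in peaks of a tumor. A gene was called when both tumors of one group exceeded both tumors of the other. The tumors held 69861 and 67850 intervals in control tumors 1 and 2, and 65763 and 59762 in test tumors 1 and 2. The median coverage over all genes was 1.81%, 1.74%, 1.78% and 1.71% in the same order. The intervals carry no height, read count or depth, so only the presence and width of a peak could be compared. With 2 tumors per group the exact permutation test has 3 splits and cannot go below p = 0.333, and by the study's account each tumor came from a separate mouse.

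The DNA of the places on which the results turn is shown first, on mm10 (GRCm38) coordinates, each 5′ to 3′ on the strand of its gene. Stretches at chr7:6727836-6728135 (minus strand) and chr10:13060254-13060503 (plus strand) were read from the reference genome, because they lie in peaks or at a start marked in all 4 tumors. The others are RefSeq promoter windows of GRCm38.p6, from 250 bases before to 50 bases after a start. These are Peg3 chr7:6730370-6730669 (minus), Plagl1 chr10:13090582-13090881 (plus), Grb10 chr11:12037371-12037670 (minus) and Mest chr6:30737800-30738099 (plus). In the Peg3 intron stretch the capitals mark matches to GCCATNTT, the core that the zinc finger protein YY1 binds, and in all others they mark CpG dinucleotides, the sites of DNA methylation.
Peg3 intron region: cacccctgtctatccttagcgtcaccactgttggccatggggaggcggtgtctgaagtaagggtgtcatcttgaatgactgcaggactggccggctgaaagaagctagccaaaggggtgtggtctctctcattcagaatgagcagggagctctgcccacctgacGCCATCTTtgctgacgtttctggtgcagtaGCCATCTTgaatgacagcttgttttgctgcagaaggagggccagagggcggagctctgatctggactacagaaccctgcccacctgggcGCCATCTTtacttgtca
Peg3 promoter: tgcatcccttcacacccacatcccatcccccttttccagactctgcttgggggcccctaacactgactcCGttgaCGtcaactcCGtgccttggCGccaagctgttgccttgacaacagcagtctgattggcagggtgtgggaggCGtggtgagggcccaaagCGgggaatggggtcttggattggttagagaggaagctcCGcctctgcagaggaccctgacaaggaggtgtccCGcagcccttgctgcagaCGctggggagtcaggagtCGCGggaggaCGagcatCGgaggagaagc
Plagl1 upstream start: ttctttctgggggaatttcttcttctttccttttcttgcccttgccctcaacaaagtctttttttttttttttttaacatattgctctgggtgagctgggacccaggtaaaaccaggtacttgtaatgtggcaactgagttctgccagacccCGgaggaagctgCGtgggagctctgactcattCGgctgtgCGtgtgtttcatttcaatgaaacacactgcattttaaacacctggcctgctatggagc
Plagl1 RefSeq promoter: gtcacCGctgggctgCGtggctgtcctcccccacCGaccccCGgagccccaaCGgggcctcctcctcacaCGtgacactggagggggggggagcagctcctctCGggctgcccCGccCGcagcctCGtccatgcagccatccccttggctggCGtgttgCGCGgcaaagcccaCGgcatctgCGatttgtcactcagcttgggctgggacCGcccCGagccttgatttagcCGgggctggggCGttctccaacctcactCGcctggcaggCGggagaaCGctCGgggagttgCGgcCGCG
Grb10 promoter: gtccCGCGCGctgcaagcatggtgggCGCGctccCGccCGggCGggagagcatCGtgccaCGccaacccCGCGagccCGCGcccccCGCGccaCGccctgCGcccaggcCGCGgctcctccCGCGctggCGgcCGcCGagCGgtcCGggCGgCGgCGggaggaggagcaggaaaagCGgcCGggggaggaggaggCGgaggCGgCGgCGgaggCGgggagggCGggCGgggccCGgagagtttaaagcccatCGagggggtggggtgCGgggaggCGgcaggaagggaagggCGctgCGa
Mest promoter: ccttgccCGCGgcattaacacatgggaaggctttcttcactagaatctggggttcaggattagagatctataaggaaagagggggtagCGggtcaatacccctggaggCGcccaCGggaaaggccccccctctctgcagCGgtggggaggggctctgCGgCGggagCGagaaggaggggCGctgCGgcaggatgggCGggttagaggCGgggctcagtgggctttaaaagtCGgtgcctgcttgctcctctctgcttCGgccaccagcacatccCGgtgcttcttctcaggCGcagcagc

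RefSeq promoter windows were matched for 7 of the 9 members, 11 windows in all, and H19 and Cdkn1c had none. None of the 11 windows had a base in a peak in any tumor, beside 43.2% of the 32851 promoter windows of all genes that did. The 11 are not separate observations, since the Mest windows at chr6:30737800-30738099 and chr6:30737803-30738102 nearly coincide. The Grb10 window held 45 CpG, more than 98.1% of all promoters, and the Plagl1 RefSeq window held 26, more than 83.1%. The median promoter held 7.

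Of the 9 members, only Plagl1 had a peak over its annotated start. A peak within 1 kb of the annotated 5′ end was present in all 4 tumors for Peg3 and Plagl1, in test tumor 2 alone for Grb10, and in no tumor for the other 6 (H19, Mest, Cdkn1c, Dlk1, Meg3 and Ndn). Of all protein-coding genes, 49.6% had such a peak in all 4 tumors and 42.8% had one in none. Of the 5854 long intergenic noncoding RNA genes, the class of H19 and Meg3, 15.3% had one in all 4. Counting a peak at any annotated transcript start of a member left 6 without one.

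Across windows, 8 of the 9 members had a peak in at least 1 tumor, and Ndn had none, beside 26.5% of all genes without a peak in any tumor. The number of members with a peak in the window was 5 and 6 in control tumors 1 and 2 and 8 and 6 in test tumors 1 and 2. Both control tumors were higher for 2 members, Cdkn1c and Mest, a call that 13.6% of the 40753 genes with a peak received. Both test tumors were higher for 2 members, Plagl1 and Peg3, a call that 16.5% of those genes received. For the other 4 members with peaks, H19, Dlk1, Meg3 and Grb10, the groups overlapped. The median difference over the 9 members, test minus control, was 0.071 percentage points, and over all genes tested it was 0.016. In whole tumors, fewer cells of a type and less acetylation per cell cannot be told apart.

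**Figure D1:**
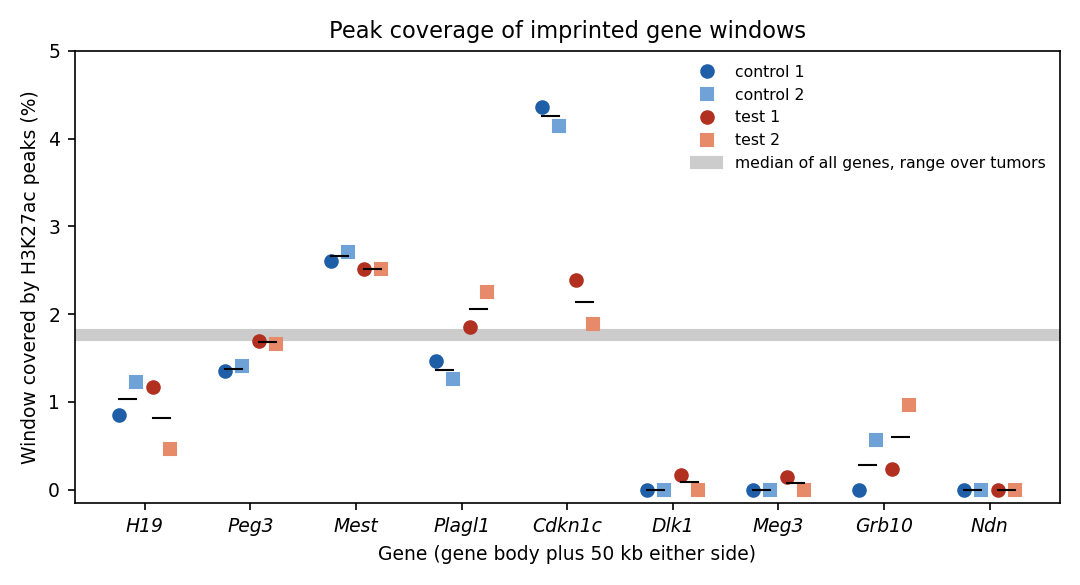
Each point is 1 tumor and gives the percentage of a gene window (gene body plus 50 kb either side) that lies in H3K27ac peaks. Short black lines are group means (n = 2) and the gray band spans the medians of all genes over the tumors. The control and test points of Cdkn1c are far apart, those of Plagl1, Peg3 and Mest are close but do not overlap, and Dlk1, Meg3 and Ndn lie at or near 0.

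Cdkn1c encodes p57, an inhibitor of cyclin-dependent kinases that holds cells out of the cell cycle. Its window on chr7, around the gene at chr7:143458339-143461050, was 4.36% and 4.14% covered in control tumors 1 and 2, and 2.39% and 1.89% covered in test tumors 1 and 2. Both control tumors were above both test tumors, and in windows of 50 kb this was the widest gap among the members. In windows of 100 kb either side the difference was -0.82 points for Cdkn1c and -1.23 points for Mest. The control mean was 4.25% ± 0.155 (SD, n = 2), and the test mean was 2.14% ± 0.357 (SD, n = 2). The difference was -2.11 percentage points, between -2.47 and -1.75 over the 4 control and test pairings (exact permutation test, two-sided, p = 0.333, the smallest that the design allows). Of all genes tested, 6.94% had a lower difference. The number of peaks in the window was 7 and 9 in control tumors and 3 and 2 in test tumors.

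None of the peaks in the Cdkn1c window lay in the gene. The nearest peak was 12.6, 12.3 and 12.7 kb from its start in control 1, control 2 and test 1, and 40.4 kb away in test 2, and no tumor had a peak within 10 kb of the gene. The peaks lay instead at its neighbors in the Kcnq1ot1 domain, a cluster silenced on the paternal copy by the noncoding RNA Kcnq1ot1. The region at chr7:143501416-143503025, beside the start of Phlda2, a placental growth restraint gene, was present in all 4 tumors with 1597, 1540, 1186 and 1489 bp in control 1, control 2, test 1 and test 2. The region at chr7:143473673-143474390, over the start of the transporter gene Slc22a18, held 489, 608 and 456 bp in control 1, control 2 and test 1 and no peak in test 2. A further region at chr7:143510044-143511507 held 1400, 1295, 1011 and 518 bp, so it was wider in both control tumors.

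The only regions in any member window that were present in both control tumors and neither test tumor lay near Cdkn1c. One, at chr7:143478221-143478801 in Slc22a18, held 581 and 298 bp in control tumors 1 and 2, and the other, at chr7:143408724-143409003 in the potassium channel gene Kcnq1, held 215 and 185 bp. Such control-only regions occurred in the windows of 19.6% of the 40753 genes with a region in the window. Another 6 regions of 159 to 368 bp in the Cdkn1c window were present in 1 control tumor each, 4 of them in control 2 and 2 in control 1. These narrow peaks carried much of the difference. With peaks of at least 1 kb alone, the Cdkn1c difference was -0.78 points, and no control-only region remained in the member windows.

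The 3 protein-coding genes outside the member windows whose coverage over the 4 tumors was most like that of Cdkn1c, by Euclidean distance, were Cd53, Svs6 and Ypel1. Their distances were 0.60, 0.745 and 0.781 points. Cd53 was 3.82% and 4.19% covered in control tumors and 2.63% and 1.78% covered in test tumors. Svs6 was 4.79% and 4.05% covered in control tumors and 2.68% and 1.36% in test tumors. Ypel1 was 4.27% and 3.49% covered in control tumors and 2.44% and 2.30% in test tumors.

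Other imprinted genes of distal chr7 differed in direction. Slc22a18 was 6.75% and 5.67% covered in control tumors and 5.62% and 4.43% covered in test tumors, so both control tumors were higher by a narrow margin. Kcnq1ot1, with 1.34% and 1.26% against 1.13% and 0.91%, and Nap1l4, with 7.0% and 6.57% against 6.41% and 5.08%, also had both control tumors higher. Phlda2, with 8.80% and 7.33% against 7.54% and 5.98%, overlapped between the groups. The groups also overlapped for Kcnq1, Tssc4 and Osbpl5. The windows of Slc22a18, Nap1l4 and Phlda2 overlap that of Cdkn1c and share peaks with it, whereas that of Kcnq1ot1 does not reach it. Ascl2, which encodes a transcription factor of placental and stem cells, went the other way, with 3.65% and 4.02% in control tumors and 7.52% and 8.31% in test tumors, a difference of 4.08 points. Its neighbors Tspan32 and Cd81, both genes of tetraspanins, also had both test tumors higher, by 3.96 and 3.70 points. The windows of these 3 genes overlap each other and are not separate observations. Ascl2 and Tspan32 had no promoter peak in any tumor, so the covered bases lay outside their promoters, whereas Cd81 had one in all 4. The windows of Tspan32 and Cd81 each held 2 control-only regions and no region present in both test tumors alone.

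**Figure D2:**
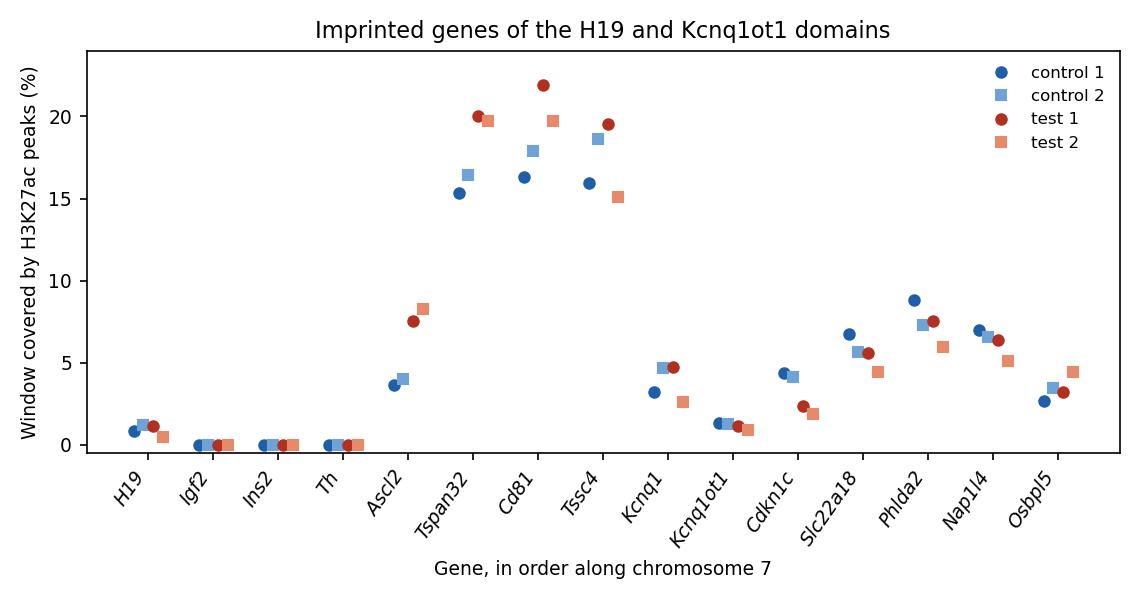
Each point is 1 tumor, and the vertical axis gives the percentage of a gene window in H3K27ac peaks for 15 imprinted genes in their order along chr7. Test points lie above control points at Ascl2, Tspan32 and Cd81, and below them at Cdkn1c, Slc22a18, Kcnq1ot1 and Nap1l4, those of Phlda2 overlap, and Igf2, Ins2 and Th are at 0 in all 4 tumors.

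Plagl1 encodes a zinc finger transcription factor that restrains proliferation and activates other imprinted genes. Its window, around the gene at chr10:13060504-13131694, was 1.46% and 1.26% covered in control tumors 1 and 2, and 1.86% and 2.26% covered in test tumors 1 and 2. Both test tumors were higher, by 0.69 points, between 0.39 and 0.99 over the pairings, with exact permutation p = 0.333. It was the one member whose own gene carried peaks that were wider in both test tumors.

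The Plagl1 peaks lay at 2 places. The region at chr10:13059926-13061004, over the first exon at the annotated 5′ end, was 435 and 547 bp wide in control tumors and 625 and 1079 bp in test tumors. The region at chr10:13099203-13101814, in an intron centered 40005 bp downstream of that end, was 2071 and 1613 bp wide in control tumors and 2551 and 2531 bp in test tumors. At both places the groups did not overlap. The RefSeq promoter printed above lies between them and had no peak, with the nearest at 8499, 8882, 8432 and 8371 bp from its start in control 1, control 2, test 1 and test 2. The upstream start that did carry a peak held 4 CpG in its 250 bases, against 26 in the 300 bases of the RefSeq promoter. Within 10 kb either side of the gene, the difference was 1.16 points and both test tumors were again higher.

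**Figure D3:**
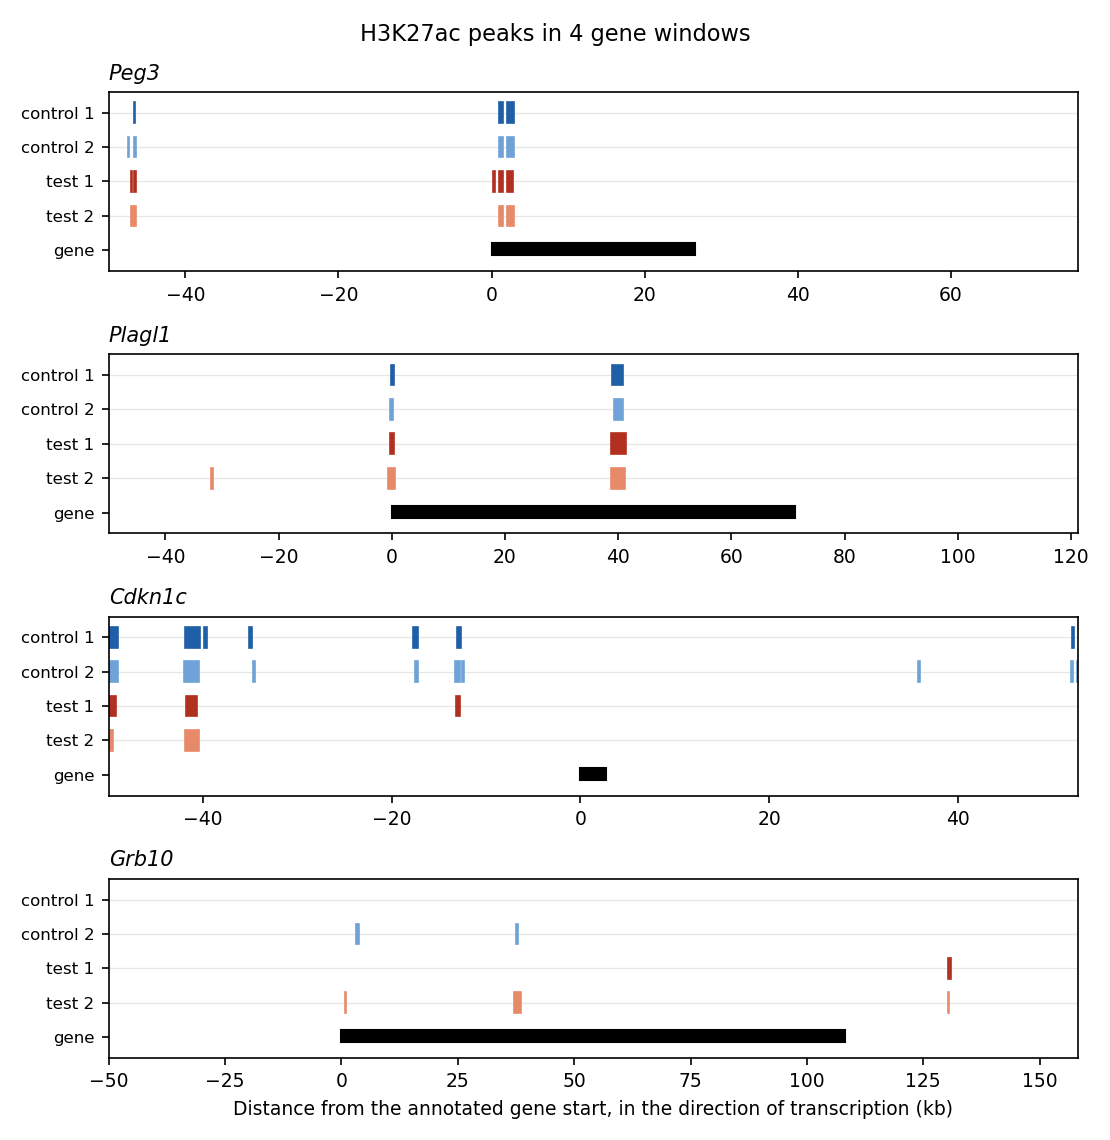
Colored blocks are H3K27ac peaks of each tumor, plotted by distance in kb from the annotated gene start in the direction of transcription, and the black bar is the gene. Peg3 and Plagl1 have peaks in the gene in all 4 tumors, the Cdkn1c peaks all lie outside the gene and are fewer in the test tumors, and the Grb10 peaks differ from tumor to tumor.

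Peg3 encodes a large zinc finger protein that acts in growth and maternal behavior, and its imprinting control region holds a cluster of YY1 sites in the first exon and intron. Its window, around the gene at chr7:6703892-6730431, was 1.35% and 1.40% covered in control tumors and 1.70% and 1.66% covered in test tumors. Both test tumors were higher by 0.30 points, against an SD of 0.035 over the pairings (exact permutation p = 0.333). Within 10 kb either side of the gene the difference was 0.29 points, but the groups overlapped. The gap did not come from the gene body alone, which held 1528 and 1383 bp of peaks in control tumors and 1755 and 1427 bp in test tumors, so the groups overlapped there. A region at chr7:6776865-6777555 in the adjoining imprinted gene Usp29 held 185 and 173 bp in control tumors and 391 and 675 bp in test tumors. Another in Usp29, at chr7:6777757-6777976, held 220 bp in control 2 alone. With it, the bases outside the gene body also overlapped between the groups. No peak in the Peg3 window was as wide as 1 kb in any tumor.

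All 4 tumors shared 2 regions in the first intron of Peg3. The one at chr7:6727516-6728456 was 936, 870, 812 and 882 bp wide in control 1, control 2, test 1 and test 2, and the one at chr7:6728923-6729529 was 592, 513, 606 and 545 bp wide. Their widths overlapped between the groups. The first held 5 matches to GCCATNTT and the second 1, all 6 in the same orientation as Peg3, and the printed stretch of 300 bases holds 3. Both strands were searched. At least 1 match was found in the central 300 bases of 5.24% of the 62930 regions in the 4 tumors and in 6.05% of RefSeq promoters. Only 7 regions, 0.0111%, had 3 or more matches in their central 300 bases, a number of matches chosen after the Peg3 sequence was seen. A further peak, of 337 bp at chr7:6729969-6730305, was present in test tumor 1 alone and reached 48 bp into the first exon.

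A search for CGNGGNGGC, the core of the CTCF sites of the H19 control region, found 1 match in a Grb10 window and 1 in a Mest window among the members' promoters and none in the 8 regions within member genes. The member regions were searched over their whole width of 201 to 2612 bp, whereas the background was the central 300 bases, which held it in 4.03% of regions, and it occurred in 9.86% of promoters. Among the members' promoters, TATAAA was matched in 1 Meg3 window, with 2 matches. Within member genes it was matched 3 times in the Plagl1 intron region and 2 times in each of 2 Grb10 regions, all counted over the whole region. It occurred in the central 300 bases of 14% of regions and in 13.6% of promoters, a length that differs from that of the member regions, so the shares do not set an expectation for them. A match is a description of the letters and says nothing of binding.

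Mest, a paternally expressed gene of the hydrolase family that is active in growing mesoderm, had no peak in the gene at chr6:30723547-30748465. Its window was 2.61% and 2.71% covered in control tumors and 2.51% and 2.51% covered in test tumors. Both control tumors were higher by 0.15 points (exact permutation p = 0.333), and by 1.23 points in windows of 100 kb either side. In windows of 50 kb, the covered bases came from the cilia gene Cep41, whose start at chr6:30692941-30693898 held 760, 952, 794 and 701 bp in control 1, control 2, test 1 and test 2, and from a wider region of the same gene at chr6:30673121-30676071, with peaks of 2550, 2859, 2346 and 2436 bp in that order that the window border cuts. The start region alone overlapped between the groups. The nearest peak lay 29.7 kb from the Mest start in control 1, so the 50 kb call describes its neighbor and not Mest.

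H19 is a maternally expressed noncoding RNA that shares its enhancers with the growth factor gene Igf2. Its window, around chr7:142575529-142578143, was 0.85% and 1.22% covered in control tumors and 1.17% and 0.47% covered in test tumors, so the groups overlapped (difference -0.22 points, exact permutation p = 0.667). No tumor had a peak in the gene. A region on the downstream side, at chr7:142570879-142571417, held 155, 355 and 396 bp in control 1, control 2 and test 1 and was absent from test 2. The other main region, at chr7:142533084-142533913, lay beside the start of the gene Mrpl23, of the mitochondrial ribosome, and held 715, 732, 804 and 479 bp. Igf2 had no peak in its window in any tumor.

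Grb10 encodes an adaptor that dampens insulin and growth factor receptor signaling. Its window, around chr11:11930508-12038683, held no peak in control 1 and was 0.56%, 0.23% and 0.97% covered in control 2, test 1 and test 2. The groups overlapped (difference 0.32 points, exact permutation p = 0.667). In windows of 100 kb either side both test tumors were higher, also by 0.32 points, a call that 15.9% of genes tested received. Control 2 and test 2 both had peaks in the gene, whereas control 1 and test 1 had none. A region at chr11:12000059-12001704 in an intron was 399 bp wide in control 2 and 1646 bp in test 2. Near the start, test 2 had a peak of 201 bp and control 2 a peak of 777 bp at chr11:12034840-12035616, which did not coincide. The single test-only region of all member windows lay at chr11:11908201-11908429, 10057 bp from the start of Ddc, an adjoining imprinted gene for dopa decarboxylase, and held 166 and 167 bp in test tumors 1 and 2. Test-only regions occurred in the windows of 10.4% of the 40753 genes with a region in the window.

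Dlk1 and Meg3 lie in one imprinted domain of chr12, in which the paternal copy expresses Dlk1, a Notch-related ligand of progenitor cells, and the maternal copy expresses Meg3. No peak lay in either gene. Their windows share one peak of 186 bp, at chr12:109513078-109513263, which was present in test 1 alone and gave 0.17% for Dlk1 and 0.14% for Meg3, with 0 in the other 3 tumors. The distance from the Dlk1 start to the nearest peak was 493, 492, 60.3 and 493 kb in control 1, control 2, test 1 and test 2. Over all protein-coding genes that median distance was 0.236, 0.194, 0.169 and 0.326 kb, and 3.35% of them lay farther from a peak than Dlk1 in control 1. Over genes of any type the medians were 14.9, 15.0, 15.5 and 16.6 kb, and 7.31% lay farther. Rtl1, Rian and Mirg, further imprinted genes of the same domain, also had no peak in their windows.

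Ndn encodes necdin, a growth suppressor of the MAGE family best known in neurons. Its window, around chr7:62346569-62350262, held no peak in any tumor, and the nearest peak lay 931, 1407 and 1407 kb away in control 1, control 2 and test 1. In test 2 a peak lay at 73.4 kb, 0.048 kb from the start of Mkrn3, a paternally expressed gene of the same domain.

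The windows of the 9 members held 30 distinct regions when the peaks of all tumors were joined. Of these, 10 were found in every tumor and had a median width of 1018.5 bp, and 14 were found in 1 tumor and had a median width of 218 bp. By tumor, 2, 7, 3 and 2 of the latter were in control 1, control 2, test 1 and test 2. Within member genes lay 8 regions, 4 of them in all 4 tumors, and outside lay 22, 6 of them in all 4.

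A list of 63 other imprinted genes gives the setting. Of these, 50 had a peak in the window. Both control tumors were higher for 7 (13.6% of all genes with a peak), and both test tumors for 11 (16.5% of all genes with a peak). The groups overlapped for 32. The median difference of the 63 genes was 0, and 23 had a promoter peak in all 4 tumors against 31 in none. Those shares were 49.6% and 42.8% over all protein-coding genes, whereas the list also holds noncoding genes. Beside the genes of distal chr7, the largest differences without overlap were those of Peg13, a noncoding RNA gene, and Commd1, a gene of copper metabolism. Peg13 was 4.86% and 4.62% covered in control tumors and 3.05% and 3.34% in test tumors, and Commd1 was 8.39% and 8.35% covered in control tumors and 7.97% and 6.33% in test tumors.

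Markers of the cell types of a breast tumor were measured by the same window coverage. All 12 epithelial genes had a promoter peak in all 4 tumors, and their mean coverage was 26.5%, 24.9%, 26.9% and 25.6% in control 1, control 2, test 1 and test 2, with both control tumors higher for 1 and both test tumors higher for 3. The mean coverage of 12 fibroblast genes was 3.11%, 2.5%, 2.58% and 1.74%, with both control tumors higher for 6, both test tumors higher for 1, and Lum at 0 in all tumors. That of 10 endothelial genes was 5.58%, 5.60%, 5.08% and 4.52%, with both control tumors higher for 5 and both test tumors for none. That of 10 myeloid genes was 10.2%, 9.44%, 10.0% and 7.77%, again with both control tumors higher for 5 and both test tumors for none. Means and medians of these lists differed in whether the groups overlapped. The endothelial mean was higher in both control tumors, and the fibroblast and myeloid means overlapped. The fibroblast median was 1.28% and 1.37% in control tumors and 0.64% and 0.54% in test tumors, and the myeloid median was 7.13% and 5.63% against 4.81% and 4.33%, both without overlap. The endothelial medians, 2.90% and 1.86% against 2.19% and 1.85%, overlapped. The T cell list (8.04%, 7.57%, 8.85% and 7.75%), the adipocyte list (4.60%, 4.51%, 5.29% and 4.01%) and the skeletal muscle list (4.36%, 4.08%, 4.53% and 3.47%) overlapped between the groups in their means. Both control tumors were higher for 3 T cell, 2 adipocyte and 1 skeletal muscle genes, and both test tumors were higher for 3, 1 and 0. Like the Cdkn1c window, the fibroblast, endothelial, myeloid, adipocyte and skeletal muscle means were lowest in test 2, the tumor with the fewest intervals. When only the widest 59762 peaks of every list were kept, the Cdkn1c difference was -1.78 points. The part of these cell types in it was not tested.

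**Figure D4:**
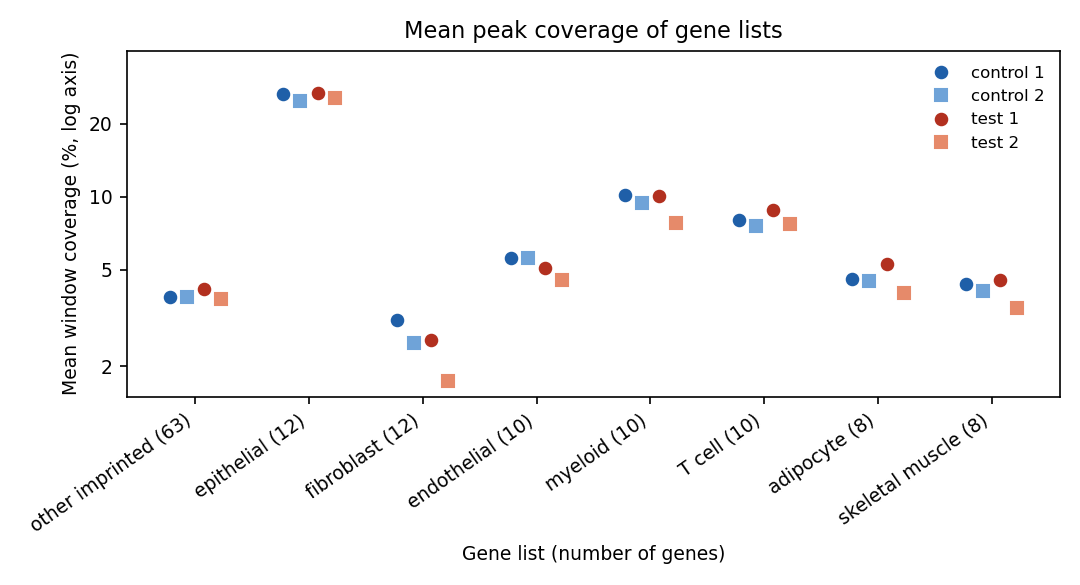
Each point is 1 tumor and gives the mean percentage of gene windows in H3K27ac peaks over a gene list, on a log axis, with the number of genes in parentheses. The epithelial list lies between 24.9% and 26.9% in all tumors, and the fibroblast and endothelial lists are lowest in test 2.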

How the data were processed

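The authors aligned H3K27ac ChIP-seq reads of 4 breast tumors to mm10 with BWA and called peaks per tumor against matched input with MACS2. The versions are not given in the sources used here. Per the file headers and values, the deposited tables have chromosome, start and end in base pairs, with no other score or count, and intervals lie at least 201 bp apart. The depth is unknown. Tumors were grouped by the genotype in the labels. Coverage of each GENCODE M21 gene body plus 50 kb either side was computed over 21 chromosomes with Python 3.11.15, numpy 2.4.6 and scipy 1.17.1, and the code was tested on simulated data. Overlapping or touching peaks of the 4 lists were merged into regions, and presence needed 1 bp. Groups were compared by the order of the tumors and a two-sided exact permutation test. Promoters were 1 kb either side of the annotated 5′ end. The members and lists were chosen with earlier results of these data known. Named were all 9 members, the 6 other imprinted genes with the largest non-overlapping differences, every control-only or test-only region, the 3 genes most like Cdkn1c, and neighbors with starts in member windows. Igf2, Ins2, Th, Tssc4, Kcnq1, Kcnq1ot1, Nap1l4, Osbpl5, Rtl1, Rian, Mirg, Mkrn3, Sgce, Peg10 and Dcn were named beside these after their values were seen. Alternatives were windows of 10 and 100 kb, peaks of at least 1 kb, equal numbers of peaks, promoters of 2.5 kb, stricter presence, joined peaks, centering and leaving out each tumor. Input samples were not used here.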

Additional observations from a re-analysis of the deposited data

How the results depend on the processing

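None of the 4 members whose groups did not overlap changed sign under the alternatives run. Without test 2, H19 (0.13 points) and Grb10 (-0.05 points), whose groups overlapped, did. Windows of 10 kb either side left 4 members with a peak, 0 with both control tumors higher (13.3% of genes tested) and 1 (Plagl1) with both test tumors higher (17.3%). Peaks of at least 1 kb left 4 members with a peak, 1 (Cdkn1c) higher in control (10.7% of genes tested) and 1 (Plagl1) in test (18.9%), with 0 control-only and 0 test-only regions, and 0 members with a promoter peak in every tumor. Peaks covering at least 50% of a region gave 2 test-only regions, and equal numbers of peaks gave 1 control-only region. Leaving out each tumor in turn gave 2 to 3 members with both control tumors higher, 2 to 4 with both test tumors higher (4 without test 2, where 44.2% of the genes tested received that call, while without test 1 43.2% were called higher in control), 2 to 9 control-only regions (9 without control 1) and 1 to 5 test-only regions (5 without test 2; with 1 tumor left in a group its rule needs only that tumor, so these counts can only stay or rise for that group), and a median difference between 0 and 0.135 points. Windows of 100 kb either side left 9 members with a peak. Both control tumors were higher for 2 (Cdkn1c and Mest, 13.9% of genes tested), and both test tumors for 3 (Peg3, Plagl1 and Grb10, 15.9%). At 100 kb the difference was -0.82 points for Cdkn1c, -1.23 for Mest and 0.52 for Peg3. That of Cdkn1c was -1.78 with equal numbers of peaks and 0 at 10 kb, where no peak lies, and that of Plagl1 was 1.16 at 10 kb. Centering on the median of all genes shifts every difference by 0.016 points, and it could not be applied to counts from the order of tumors. No paired analysis was possible because the replicate numbers only name a tumor and pair none across the groups. Without depth or peak heights, an absent peak cannot be told from one that missed the threshold.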

Other observations

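Some imprinted genes outside the list of members had promoters marked in both tumors of one group and neither of the other. Sgce, the gene of a sarcoglycan expressed from the paternal copy, had a promoter peak in both test tumors and in neither control tumor. Its window was 0% covered in both control tumors and 0.15% and 0.35% covered in test tumors 1 and 2. The promoter of the paternally expressed gene Peg10 adjoins that of Sgce and shares the region, so it is not a separate observation, and its window coverage overlapped between the groups, at 0.32%, 0.26%, 0.23% and 0.84% in control 1, control 2, test 1 and test 2. Dcn, the gene of the matrix proteoglycan decorin and itself a fibroblast marker, had the opposite pattern, with promoter peaks in both control tumors only and coverage of 0.60%, 1.63%, 0% and 0% in that order. These genes were chosen after their values were seen, and no test was made. The share of all genes with a promoter marked in this way was not computed, so these promoters cannot be set against a background. For regions anywhere in the window, 19.6% of the 40753 genes with a region had a control-only region and 10.4% had a test-only region.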
